A study of Mus musculus with 38 samples.

Results

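The comparison set liver RNA of LIRFKO mice against liver RNA of LIRKO mice, both 60 min after dextrose. LIRFKO mice lack the insulin receptor (Insr) and the transcription factor FoxO1 (Foxo1) in hepatocytes, and LIRKO mice lack the receptor alone. Both groups share the loss of the receptor and carry albumin-Cre, which is active in hepatocytes and leaves the other liver cells with both genes. Samples were taken by their titles: LIRFKO mice GTT_725, GTT_726 and GTT_727 and LIRKO mice GTT_667, GTT_690 and GTT_697, which makes 6 of the 38 samples of the series. LIRFKO mouse GTT_724 is a glucose mouse by its title and a fasted mouse by its description, and entered no comparison. All were males, 11 to 12 weeks old, of mixed FVB/N-C57Bl/6 strain, fasted for 24 h by the sample descriptions and overnight by the protocol. By the design text the FoxO1 floxed allele came from FVB/N mice and the receptor floxed allele and the Cre from C57Bl/6 mice, so between LIRFKO and LIRKO mice FoxO1 loss and line cannot be told apart. Levels are also given for 3 IR floxed glucose mice, which keep the receptor and FoxO1. The same genotypes were compared in other mice, fasted (3 LIRFKO, 3 LIRKO) and refed for 6 h after the fast (4 LIRFKO, 4 LIRKO), and the floxed controls of both lines were compared after refeeding (3 IR/FoxO1 floxed, 4 IR floxed).

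Insulin acts on hepatocytes through its receptor, insulin receptor substrates and the kinase Akt. Akt phosphorylates FoxO1 and keeps it out of the nucleus, and FoxO1 left in the nucleus holds genes of the fasted liver switched on, among them Igfbp1 and the glucose-6-phosphatase gene G6pc. Without the receptor this brake is lost, and removing FoxO1 as well takes away the transcription factor that the brake acts on.

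Values are log2 intensities of single dye channels, on which a difference of 1 is a 2-fold change. Over all columns they ran from 5.07 to 16 with column medians from 5.72 to 5.78, so the lower-expressed genes lie near a floor, where differences are understated. Values above 15.8 were taken as the top of the range. Differences are LIRFKO minus LIRKO ± SE from a limma fit over 22485 genes that allows for dye and shared arrays. They can therefore depart a little from the difference of the means. Values of single mice are given in the order GTT_726, GTT_727 and GTT_725 for LIRFKO, GTT_697, GTT_667 and GTT_690 for LIRKO and GTT_699, GTT_659 and GTT_691 for IR floxed. A gene was called at an adjusted p (Benjamini-Hochberg, whole table) below 0.05. LIRFKO mouse GTT_725 and LIRKO mouse GTT_697 shared an array, and the other 4 mice lay on 4 other slides. Mouse GTT_725 was the only one of the 3 LIRFKO mice labelled with Cy3, and mouse GTT_697 the only one of the 3 LIRKO mice labelled with Cy5. Leaving out either leaves its genotype in a single dye, so the part of that mouse and the part of the dye balance in a lost call cannot be told apart. In cell type markers, 3 libraries of glucose mice stood apart. LIRFKO mouse GTT_726 had a mean of 8.85 over 10 neutrophil markers, against 6.42 and 6.58 in the other LIRFKO mice and 6.31 to 6.61 in LIRKO mice, and its acute phase list averaged 12.79 against 11.20 and 11.43 in the other LIRFKO mice. LIRFKO mouse GTT_725 averaged 10.67 over 5 erythroid markers, against 9.48 and 9.70 in the other LIRFKO mice and 9.21 to 9.73 in LIRKO mice. IR floxed mouse GTT_659 averaged 10.96 over 7 pancreatic acinar markers, against 6.52 and 6.57 in the other IR floxed mice, and no test was made against the IR floxed group.

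Foxo1 was nearly at the floor in LIRFKO livers, with 6.39, 6.07 and 6.52 log2, against 10.02, 9.56 and 9.85 in LIRKO livers. IR floxed livers had 10.91, 10.13 and 10.47. The difference was -3.53 ± 0.47 (adjusted p = 2.62e-05), and no mouse of one genotype came near the other. Insr stood at 6.25, 6.18 and 6.33 in LIRFKO livers, against 6.65, 7.18 and 7.80 in LIRKO livers and 7.94 to 8.69 in IR floxed livers. It is deleted in both knockouts, yet it differed by -0.84 ± 0.24 (adjusted p = 0.0295). That call did not hold without LIRFKO mice GTT_725, GTT_726 or GTT_727 or LIRKO mice GTT_667 or GTT_690 in turn, with an adjusted p of 0.161, 0.0594, 0.0619, 0.0519 and 0.155. Where the probes lie relative to the deleted exons is not given in the sources used here, and RNA left in hepatocytes and RNA of other liver cells were not separated. Foxo3, a paralog of Foxo1, was near the floor throughout, with 5.41, 5.54 and 5.98 in LIRFKO livers against 5.61, 5.80 and 5.58 in LIRKO livers (difference 0.08 ± 0.09, adjusted p = 0.707).

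FoxO proteins bind short elements, for which GTAAACA and CAAAACA were searched on both strands in the 250 bases before the start of each gene (RefSeq, GRCm38.p6, 1 promoter per gene). Among genes described as FoxO1 targets in liver that were called lower, 4 hold a match, and these promoters are shown for that reason. Pdk4 and Pnpla2, also called lower, hold no match, while Saa4, Hsd11b1, Gstm1 and Slc1a2, called higher, hold 1 each. Insr, also called lower, had no promoter among those searched. Each is written 5′ to 3′ on the strand of its gene with the match in capitals, where TGTTTTG is CAAAACA read on the other strand. Igfbp1 lies at chr11:7197537-7197786 (plus strand), G6pc at chr11:101367466-101367715 (plus strand), Irs2 at chr8:11008930-11009179 (minus strand) and Txnip at chr3:96557707-96557956 (plus strand).
Igfbp1: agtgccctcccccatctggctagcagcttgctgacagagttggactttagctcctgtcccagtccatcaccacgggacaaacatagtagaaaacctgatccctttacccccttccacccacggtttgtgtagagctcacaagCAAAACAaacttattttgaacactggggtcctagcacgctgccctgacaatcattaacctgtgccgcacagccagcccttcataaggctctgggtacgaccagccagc
G6pc: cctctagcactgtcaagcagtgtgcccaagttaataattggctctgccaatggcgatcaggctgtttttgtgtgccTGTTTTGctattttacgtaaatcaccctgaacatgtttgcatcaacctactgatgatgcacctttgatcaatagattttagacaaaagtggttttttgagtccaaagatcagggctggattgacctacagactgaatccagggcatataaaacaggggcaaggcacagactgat
Irs2: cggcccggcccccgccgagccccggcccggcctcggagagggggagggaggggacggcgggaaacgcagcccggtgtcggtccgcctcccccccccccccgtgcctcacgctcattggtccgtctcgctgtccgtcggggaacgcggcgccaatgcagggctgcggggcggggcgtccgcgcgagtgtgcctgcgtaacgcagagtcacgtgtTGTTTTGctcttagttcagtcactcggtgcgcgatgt
Txnip: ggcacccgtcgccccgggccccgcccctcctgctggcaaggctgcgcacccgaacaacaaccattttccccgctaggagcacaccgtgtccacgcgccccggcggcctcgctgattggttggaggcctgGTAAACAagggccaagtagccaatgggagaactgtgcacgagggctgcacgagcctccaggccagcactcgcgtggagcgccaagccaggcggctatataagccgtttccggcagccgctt
The matches begin 108 bases before the start in Igfbp1, 174 in G6pc, 37 in Irs2 and 121 in Txnip. Either element was found in 8.21% of the 597 promoters of genes called lower, 6.09% of the 690 of genes called higher, 7.18% of the 17162 of genes tested and 8.42% of all 27025. The matches are letters in a window and not measured binding sites.

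Of 25 measured genes described as FoxO1 targets, 7 were called lower and 1 higher in LIRFKO livers, with a list median of -0.29 against 0.00 over all genes. The 7 were Igfbp1, G6pc, Irs2, Txnip, Pdk4, Pnpla2 and Insr, the last being the receptor gene deleted in both groups. Over all genes 1703 (7.57%) were called, 3.85% higher and 3.73% lower. Without LIRFKO mouse GTT_725 the list had 3 called, and without LIRKO mouse GTT_690 it had 5. Igfbp1, a secreted IGF binding protein that insulin represses, had 14.04, 13.92 and 9.20 log2 in LIRFKO livers, against 15.90, 16 and 15.97 in LIRKO livers. All 3 LIRKO mice were at the top of the range, so the means put LIRFKO at least 11.9-fold lower (fit -4.11 ± 0.78, adjusted p = 0.00149). Mouse GTT_725 was the lowest. Without it the difference was -2.35 and was not called (adjusted p = 0.132). IR floxed livers had 14.92, 12.42 and 14.17.

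Irs2, the receptor substrate through which hepatocytes pass on the insulin signal in the fasted state, had 11.01, 10.35 and 10.17 in LIRFKO livers, against 12.08, 12.57 and 12.86 in LIRKO livers (-1.90 ± 0.30, adjusted p = 0.00023). Txnip, an arrestin that limits glucose uptake, had 8.34, 8.28 and 8.65 against 10.79, 10.22 and 10.05 (-1.91 ± 0.24, adjusted p = 7.9e-06). Pdk4, the kinase that shuts pyruvate dehydrogenase in fasting, had 7.28, 7.79 and 7.43 against 9.36, 9.60 and 9.50 (-1.94 ± 0.35, adjusted p = 0.000776). For these 3 genes LIRFKO and LIRKO mice did not overlap, and the LIRFKO levels lay within or near those of IR floxed mice, which were 9.06 to 10.47 for Irs2, 8.11 to 8.57 for Txnip and 7.04 to 7.72 for Pdk4. Each kept its call whichever of the 6 mice was left out. The fat triglyceride lipase Pnpla2 was lower too, with 11.68, 11.55 and 11.50 in LIRFKO livers against 12.92, 12.89 and 12.67 in LIRKO livers (-1.20 ± 0.30, adjusted p = 0.0137), although the adjusted p was 0.103 without LIRFKO mouse GTT_725 and 0.0971 without LIRKO mouse GTT_697. Apoc3, an inhibitor of lipoprotein clearance, was the member that rose, with 15.39, 15.66 and 15.56 against 14.94, 14.76 and 14.83 (0.74 ± 0.20, adjusted p = 0.02). Its call was lost without LIRFKO mice GTT_725 or GTT_727 or LIRKO mouse GTT_690 (adjusted p = 0.123, 0.0684 and 0.0663).

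Glucose production genes did not move as a block. G6pc, which releases glucose from glucose-6-phosphate, had 11.94, 12.09 and 11.31 log2 in LIRFKO livers, against 13.20, 13.78 and 14.01 in LIRKO livers and 12.09, 11.53 and 11.60 in IR floxed livers. Its difference was -1.84 ± 0.48 (adjusted p = 0.017), a call lost without LIRFKO mouse GTT_725 (adjusted p = 0.17) or LIRKO mouse GTT_690 (adjusted p = 0.0733). Pck1, which makes phosphoenolpyruvate for glucose synthesis, had 14.77, 14.33 and 14.67 in LIRFKO livers against 14.93, 14.61 and 13.06 in LIRKO livers, where mouse GTT_690 was the low one (0.28 ± 0.48, adjusted p = 0.839). Ppargc1a, a coactivator of the fasting program, had 8.85, 8.50 and 9.02 against 9.79, 9.54 and 10.97, without overlap but not called (-1.03 ± 0.44, adjusted p = 0.168). Of the 13 measured genes listed for glucose production, 2 were called, both lower: G6pc and Ppp1r3g. Without LIRKO mouse GTT_690 neither was. Ppp1r3g acts on glycogen and does not make glucose, and it is counted again in the glycogen list, so G6pc was the only glucose production gene called.

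Ppp1r3g, a subunit that brings a phosphatase to glycogen, had 7.40, 6.81 and 7.75 in LIRFKO livers, against 10.62, 10.66 and 11.20 in LIRKO livers (-3.09 ± 0.78, adjusted p = 0.0142). The groups did not overlap, but the adjusted p was 0.051, 0.0522 and 0.0604 without LIRFKO mouse GTT_727, LIRKO mouse GTT_690 or LIRKO mouse GTT_697. Gys2, the glycogen synthase of liver, had 12.62, 12.48 and 12.09 against 14.64, 14.16 and 13.19 (-1.71 ± 0.46, adjusted p = 0.0219), a call lost without LIRFKO mouse GTT_725 or LIRKO mice GTT_667 or GTT_697 (adjusted p = 0.195, 0.0588 and 0.262). Ugp2, which makes the UDP-glucose that glycogen is built from, had 11.12, 11.14 and 11.20 against 12.37, 12.12 and 11.94 (-1.07 ± 0.19, adjusted p = 0.000567) and kept its call with any mouse left out. In all, 3 of 15 glycogen genes were lower and 1, Pgm1, was higher (0.42 ± 0.12, adjusted p = 0.0348, and 0.534, 0.191 and 0.298 without LIRFKO mouse GTT_725 or LIRKO mice GTT_690 or GTT_697). Of the list 2 were called without LIRFKO mouse GTT_725 or LIRKO mouse GTT_690 and 1 without LIRKO mouse GTT_697.

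Among 16 genes of glucose use and of ChREBP, the glucose-sensing transcription factor, 5 were lower and 0 higher in LIRFKO livers, while the list median was 0.03. With 1 mouse left out 2 to 4 were called. Beside Txnip these were Mlxipl, which encodes ChREBP (-0.87, adjusted p = 0.0265), the aldolase Aldoa (-1.0, adjusted p = 0.0312), Pfkfb3 and Arrdc4. Pfkfb3, which makes an activator of glycolysis, had 7.22, 7.24 and 7.72 in LIRFKO livers against 9.11, 8.96 and 8.81 in LIRKO livers (-1.53 ± 0.42, adjusted p = 0.0224). Arrdc4, an arrestin related to Txnip, had 8.21, 8.20 and 8.09 against 9.56, 9.01 and 8.94 (-1.07 ± 0.28, adjusted p = 0.0175). Pfkfb3 lost its call without LIRFKO mice GTT_726 or GTT_727 or LIRKO mice GTT_690 or GTT_697 (adjusted p = 0.0514, 0.0871, 0.0676 and 0.09), and Arrdc4 without LIRFKO mouse GTT_725 or LIRKO mouse GTT_697 (adjusted p = 0.107 and 0.152). Mlxipl lost it without LIRFKO mouse GTT_727 or LIRKO mice GTT_667 or GTT_690, at 0.0548 to 0.176, and Aldoa with any of the 6 mice left out, at 0.0503 to 0.114. Glucokinase was not analysed here. Of 10 genes of pyruvate dehydrogenase control, Pdk4 alone was called.

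Growth hormone and IGF1 genes rose in 3 of 16 and fell in 2. Igf1, the growth factor that the liver secretes under growth hormone, had 13.59, 13.70 and 14.12 log2 in LIRFKO livers, against 11.84, 11.24 and 11.25 in LIRKO livers, a 5.38-fold difference (2.43 ± 0.29, adjusted p = 3.85e-06). Igfals, which holds IGF1 in its circulating complex, had 8.67, 8.59 and 8.53 against 6.49, 6.62 and 5.99 (2.18 ± 0.37, adjusted p = 0.000436). Ghr, the growth hormone receptor, had 11.91, 11.54 and 11.43 against 9.97, 10.70 and 10.01 (1.38 ± 0.29, adjusted p = 0.00346). For all 3 genes every LIRFKO mouse lay above every LIRKO mouse, and IR floxed mice ranged over 13.47 to 13.93, 7.09 to 8.63 and 10.90 to 11.93. The binding protein Igfbp2 was lower, as Igfbp1 was, with 13.24, 13.54 and 13.15 in LIRFKO livers against 14.88, 15.80 and 14.66 in LIRKO livers (-1.79 ± 0.26, adjusted p = 7.2e-05). The other 11 of the 16 genes of this axis were not called, among them Igfbp3 (-0.23 ± 0.24, adjusted p = 0.698) and Socs2 (-0.60 ± 0.63, adjusted p = 0.698), an inhibitor induced by growth hormone. Except for Igfbp1, these calls held with any mouse left out.

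**Figure D1:**
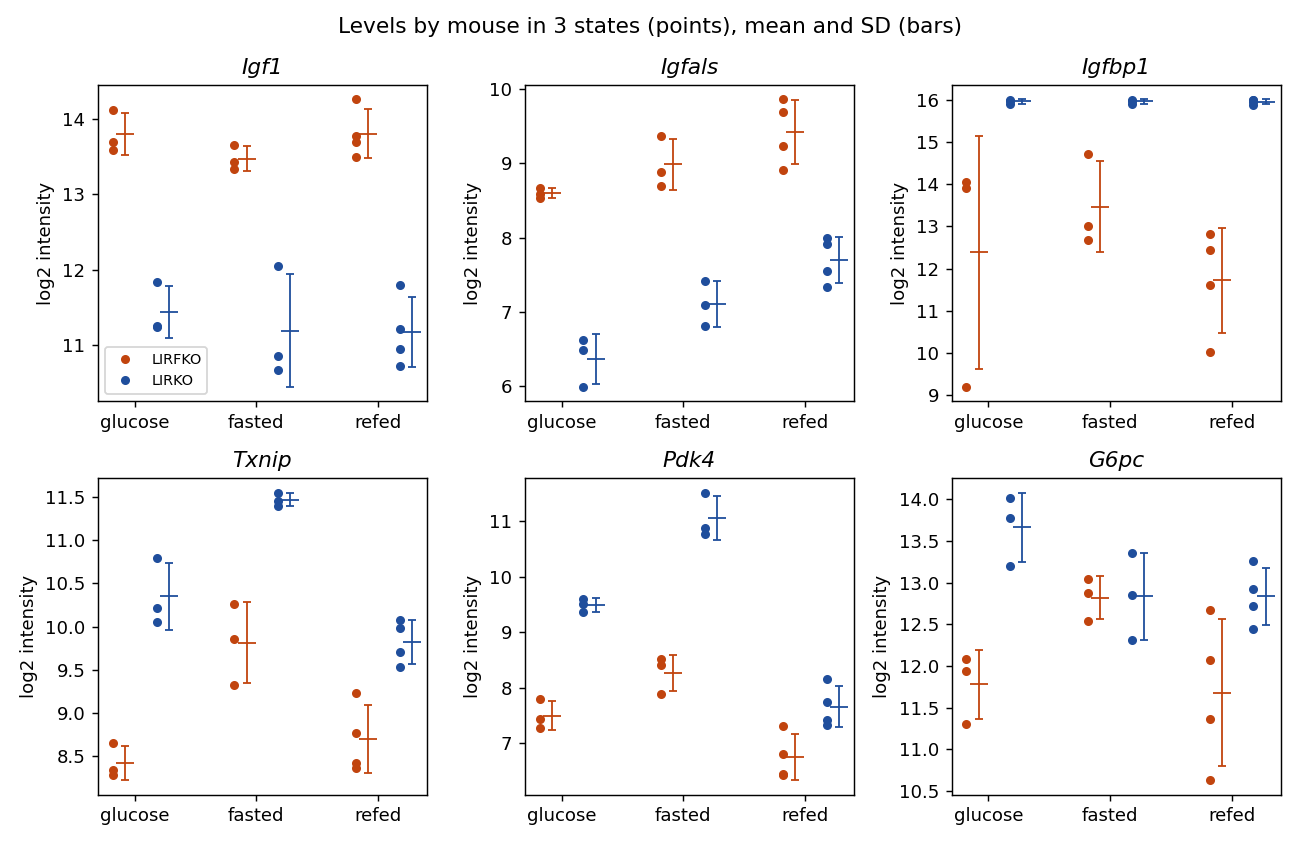
Log2 intensities of 6 genes in each LIRFKO and LIRKO mouse after glucose, fasted and refed, with the mean and SD of each group as bars beside the points. Igf1 and Igfals were higher and Igfbp1, Txnip and Pdk4 lower in LIRFKO than in LIRKO mice without overlap in all 3 states, while G6pc means were 12.82 in LIRFKO and 12.83 in LIRKO mice when fasted.

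Liver genes that males express more, which pulses of growth hormone sustain, were higher in 5 of 15 measured and lower in 0, with a list median of 0.83. Cyp4a12a, a fatty acid hydroxylase, had 10.90, 10.78 and 12.72 in LIRFKO livers against 8.87, 9.43 and 9.25 in LIRKO livers (2.51 ± 0.41, adjusted p = 0.00033). Its near copy Cyp4a12b gave 2.45 ± 0.39, and the 2 probes may read each other's RNA. Slco1a1, an organic anion transporter, had 9.89, 10.03 and 10.52 against 7.70, 8.62 and 8.43 (2.14 ± 0.37, adjusted p = 0.000493). In refed mice 11 of the 15 were higher (3.67% of all genes were), and in fasted mice 5 (3.28%). In these states 4.43% and 3.23% of all genes were lower. Of 20 genes that females express more, 1 was higher (A1bg) and 1 lower (Cyp3a44) after glucose, both with means under 7 log2. In fasted mice 3 of the 20 were lower and 0 higher, and in refed mice 9 were lower and 0 higher, with list medians of -0.23 and -0.91. The call of Cyp3a44 was lost without 5 of the 6 mice in turn and its difference shrank to -0.28 without LIRKO mouse GTT_697, and that of A1bg was lost without LIRFKO mouse GTT_725 or GTT_727 (adjusted p = 0.0989 and 0.0627).

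**Figure D2:**
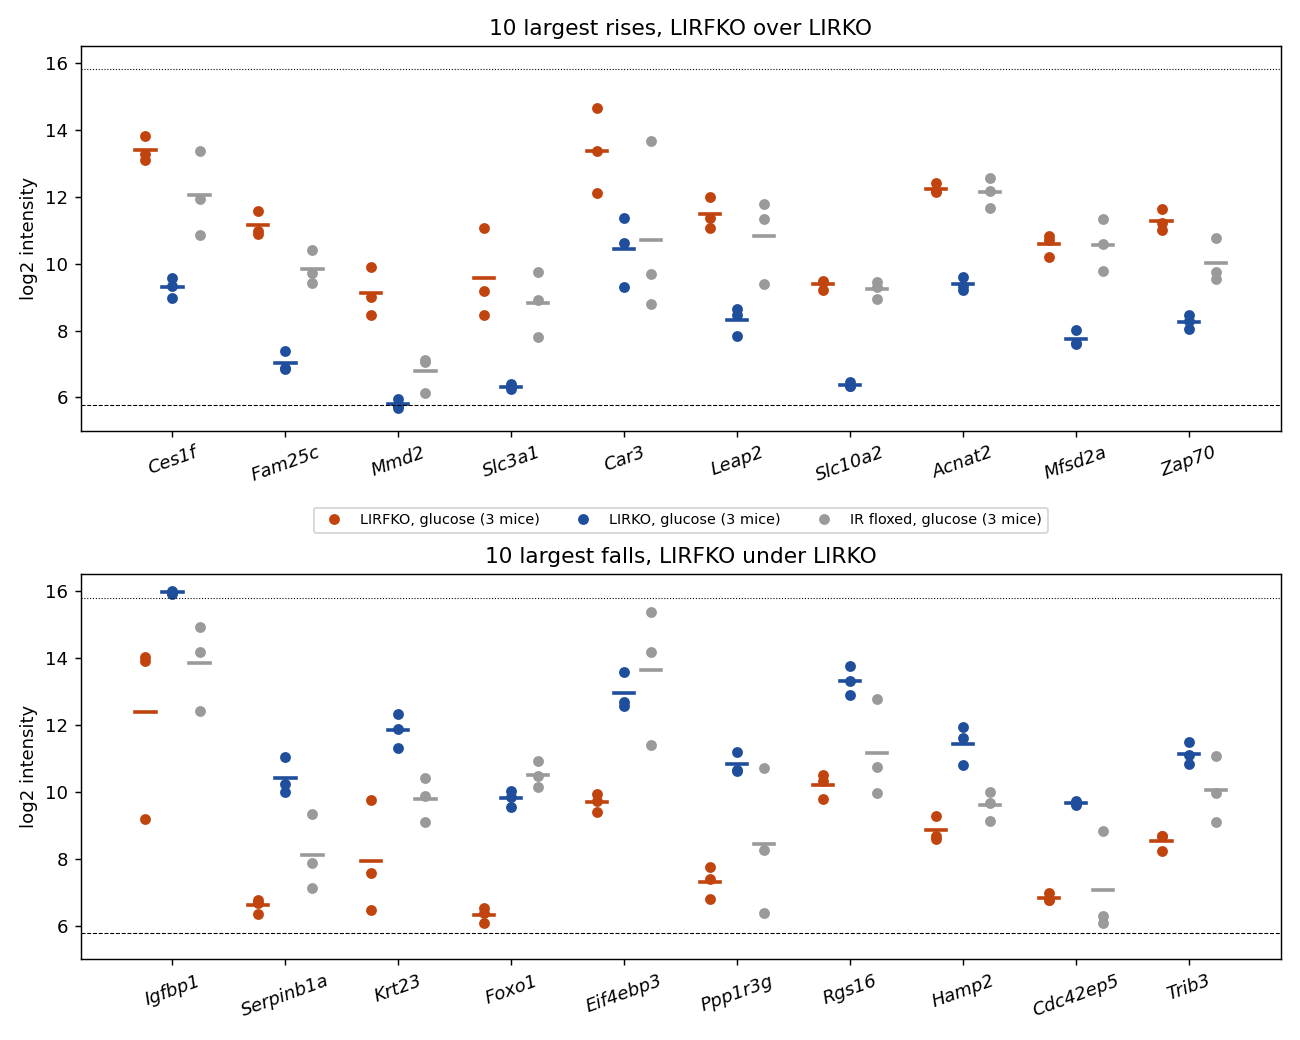
Log2 intensities in each mouse for the 10 largest rises (upper panel) and the 10 largest falls (lower panel) of LIRFKO against LIRKO after glucose, with IR floxed mice for reference and group means as short bars. The dotted line marks 15.8, above which values count as the top of the range, and the dashed line marks 5.78, the highest column median. LIRFKO and LIRKO mice did not overlap in any of the 20 genes, which was a condition of the choice.

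The largest rises were in Ces1f, Fam25c, Mmd2, Slc3a1, Car3, Leap2, Slc10a2, Acnat2, Mfsd2a and Zap70, named by a rule that takes the largest called differences without overlap between the groups. Of all genes 19.9% did not overlap, 10% higher and 9.88% lower. Ces1f, an esterase that splits stored triglyceride, had 13.08, 13.26 and 13.80 log2 in LIRFKO livers against 8.97, 9.58 and 9.34 in LIRKO livers, a 17.6-fold difference (4.14 ± 0.46, adjusted p = 2.07e-06). Fam25c had 11.56, 10.97 and 10.89 against 7.39, 6.87 and 6.86 (4.04 ± 0.47, adjusted p = 3.37e-06). Mmd2, a membrane protein of the progestin and adiponectin receptor family, had 9.89, 8.45 and 8.99 against 5.96, 5.75 and 5.69 (3.41 ± 0.48, adjusted p = 5.21e-05). LIRKO mice were at the floor for Mmd2, so its difference is understated.

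Leap2, a secreted peptide that blocks the ghrelin receptor, had 11.37, 11.98 and 11.07 in LIRFKO livers against 7.85, 8.65 and 8.45 in LIRKO livers (3.02 ± 0.49, adjusted p = 0.000255). Slc10a2, which takes up bile acids in ileum and bile duct cells, had 9.22, 9.46 and 9.49 against 6.34, 6.46 and 6.35 (3.02 ± 0.29, adjusted p = 1.98e-07). Bile duct markers gave 0 of 8 called, and all 8 had means under 7 log2 in these mice. Slc3a1, the heavy subunit of a cystine transporter, had 11.05, 8.46 and 9.17 against 6.25, 6.39 and 6.34 (3.27 ± 0.51, adjusted p = 0.000197), so LIRFKO mice varied more than LIRKO mice. Mfsd2a, a carrier of lysophospholipids, had 10.81, 10.71 and 10.19 against 7.61, 8.01 and 7.63 (2.93 ± 0.61, adjusted p = 0.00319). Acnat2, an acyltransferase of peroxisomes, had 12.14, 12.42 and 12.16 against 9.21, 9.34 and 9.59 (2.94 ± 0.61, adjusted p = 0.00318). IR floxed mice lay at 8.94 to 9.46 for Slc10a2 and at 11.67 to 12.55 for Acnat2, close to LIRFKO mice.

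Zap70, known as a kinase of T cells, had 11.62, 11.22 and 10.99 in LIRFKO livers against 8.45, 8.29 and 8.04 in LIRKO livers (2.92 ± 0.32, adjusted p = 1.26e-06). The T and NK cell markers averaged 6.85 to 6.94 in LIRFKO mice and 6.77 to 6.95 in LIRKO mice, and 1 of 12, Cd3e, was called (0.77 ± 0.16, adjusted p = 0.00401, and 0.1 without LIRFKO mouse GTT_725). Car3, a carbonic anhydrase abundant in liver, had 12.11, 13.36 and 14.65 against 9.31, 11.36 and 10.61 (3.21 ± 0.85, adjusted p = 0.0191). IR floxed mice had 8.78, 13.66 and 9.69. Car3 lies 153 genes from Foxo1 and differed by 1.58 ± 0.79 between the floxed lines after refeeding (adjusted p = 0.82). Over all states its median was 13.33 in the IR/FoxO1 line and 10.96 in the IR line, and the part of the line was not tested. Car3 was the most variable of the 10 and lost its call without LIRFKO mouse GTT_725 (adjusted p = 0.271) or LIRKO mouse GTT_697 (adjusted p = 0.242). The other 9 kept theirs with any mouse left out.

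The largest falls were in Igfbp1, Serpinb1a, Krt23, Foxo1, Eif4ebp3, Ppp1r3g, Rgs16, Hamp2, Cdc42ep5 and Trib3. Serpinb1a, a protease inhibitor described as a circulating product of livers that lack the insulin receptor, had 6.78, 6.36 and 6.68 log2 in LIRFKO livers against 10.23, 11.05 and 10 in LIRKO livers (-3.85 ± 0.56, adjusted p = 7.58e-05). LIRFKO levels were under 7 log2, so the difference may be understated. Krt23, a keratin, had 6.46, 7.59 and 9.75 against 12.32, 11.30 and 11.89 (-3.74 ± 0.66, adjusted p = 0.00066), and LIRFKO mouse GTT_725 was the highest of its group. Eif4ebp3, a repressor of translation, had 9.94, 9.72 and 9.41 against 13.59, 12.55 and 12.68 (-3.29 ± 0.65, adjusted p = 0.00221). IR floxed livers had 7.13 to 9.34 for Serpinb1a and 11.39 to 15.38 for Eif4ebp3, so the level in LIRFKO livers was below all IR floxed mice in both genes.

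Trib3, a pseudokinase that binds Akt, had 8.67, 8.67 and 8.24 in LIRFKO livers against 11.48, 10.84 and 11.10 in LIRKO livers (-2.65 ± 0.38, adjusted p = 7.11e-05). Cdc42ep5, an effector of the GTPase Cdc42, had 6.76, 6.77 and 6.99 against 9.73, 9.66 and 9.62 (-2.67 ± 0.39, adjusted p = 7.41e-05). Hamp2, a hepcidin gene whose probe may also read its close copy Hamp, had 9.29, 8.58 and 8.68 against 11.60, 11.93 and 10.79 (-2.75 ± 0.55, adjusted p = 0.00216). These 3 kept their calls with any mouse left out. Rgs16, a brake on G protein signalling, had 9.79, 10.49 and 10.33 against 12.90, 13.77 and 13.30 (-2.81 ± 0.79, adjusted p = 0.0257). Its groups were well apart, but the adjusted p rose above the threshold without LIRFKO mice GTT_725 or GTT_726 (0.128 and 0.0816) or LIRKO mice GTT_667, GTT_690 or GTT_697 (0.0536, 0.0732 and 0.0799).

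In fat metabolism, 4 of 25 genes of fatty acid and triglyceride synthesis were higher and 0 lower, with a list median of 0.08, and 1 was called without LIRFKO mouse GTT_725. Scd1, which makes monounsaturated fatty acids, had 12.00, 10.65 and 11.71 log2 in LIRFKO livers against 8.99, 9.53 and 8.77 in LIRKO livers (2.46 ± 0.53, adjusted p = 0.00426, and 0.0565 without LIRFKO mouse GTT_725). Agpat2 and Dgat2, acyltransferases on the way to triglyceride, differed by 1.37 ± 0.20 (adjusted p = 8.56e-05) and 0.90 ± 0.16 (adjusted p = 0.000893, and 0.0663 without LIRFKO mouse GTT_725). The fourth, Acly, differed by 0.58 ± 0.18 (adjusted p = 0.0469) and was lost with any of the 6 mice left out, at 0.0682 to 0.311. The main lipogenic regulator and its target were not called: Srebf1 had 5.99, 6.69 and 6.48 against 5.87, 5.57 and 5.81 (0.60 ± 0.24, adjusted p = 0.143), near the floor, and Fasn had 6.61, 7.68 and 6.87 against 6.57, 6.46 and 6.77 (0.41 ± 0.31, adjusted p = 0.539). Srebf1 and Fasn both had means under 7 log2, so a difference in either may be understated. Angptl8, a feeding-induced hormone, had 11.04, 11.53 and 11.92 against 10.73, 10.50 and 10.52 (0.94 ± 0.57, adjusted p = 0.392).

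Of 20 sterol synthesis and uptake genes 3 were higher after glucose: Tm7sf2 (1.46 ± 0.29, adjusted p = 0.00246), Ebp (1.26 ± 0.17, adjusted p = 1.8e-05) and Sc5d (0.98 ± 0.27, adjusted p = 0.0266), all late enzymes of the pathway. Ebp had 13.63, 13.53 and 13.51 in LIRFKO livers against 12.28, 12.20 and 12.41 in LIRKO livers. The list had 1 called without LIRFKO mouse GTT_725. The call of Tm7sf2 was lost without LIRFKO mouse GTT_725 (adjusted p = 0.0613), and that of Sc5d without LIRFKO mice GTT_725 or GTT_727 or LIRKO mice GTT_690 or GTT_697 (0.15, 0.0917, 0.0759 and 0.329, the last with a difference of 0.63). The list median was 0.51 after glucose, 0.78 in fasted mice and 2.18 in refed mice, where all 20 were higher. In the floxed controls of the 2 lines after refeeding the same list had a median of 1.68, with 2 called higher.

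Bile acid genes moved both ways, 2 of 20 higher and 2 lower, and 2 were called without LIRFKO mouse GTT_725. Cyp7a1, the rate-limiting enzyme of bile acid synthesis, had 9.83, 11.25 and 11.81 log2 in LIRFKO livers against 5.58, 9.97 and 7.98 in LIRKO livers (3.75 ± 0.60, adjusted p = 0.000243). LIRFKO mouse GTT_726 overlapped LIRKO mouse GTT_667, and without LIRKO mouse GTT_697 the difference was 2.46 (adjusted p = 0.0227). The export pump Abcc3 was lower, with 11.84, 11.56 and 11.50 against 12.66, 12.56 and 13.23 (-1.30 ± 0.30, adjusted p = 0.00765, and 0.0512 without LIRFKO mouse GTT_725). Among 16 lipid droplet genes 3 were higher and 3 lower, and 0 were called without LIRFKO mouse GTT_725. The droplet coat gene Plin2 had 14.04, 13.87 and 14.04 against 15.04, 15.72 and 14.67 (-1.08 ± 0.34, adjusted p = 0.0497), and Plin5 had 13.50, 13.44 and 13.83 against 12.75, 12.48 and 12.57 (1.09 ± 0.34, adjusted p = 0.0464). Both calls were marginal and lost with 5 of 6 mice in turn, at 0.0885 to 0.199 for Plin2 without any but LIRKO mouse GTT_690 and at 0.0682 to 0.396 for Plin5 without any but LIRFKO mouse GTT_727.

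Fatty acid oxidation genes gave 2 higher and 1 lower of 26: Acadm, an acyl-CoA dehydrogenase (0.84 ± 0.24, adjusted p = 0.0272), Cpt2, a carnitine transferase (0.59 ± 0.18, adjusted p = 0.0441), and Plin2. Acadm and Cpt2 were lost without LIRFKO mice GTT_725 or GTT_727 or LIRKO mice GTT_690 or GTT_697, with an adjusted p of 0.0971 to 0.235 and 0.0628 to 0.451. Lipoprotein genes gave 2 higher (Apoc3 and Sort1) and 1 lower of 24, and 0 were called without LIRKO mouse GTT_690. The lower one was Lpl, lipoprotein lipase, with 8.23, 8.59 and 8.93 in LIRFKO livers against 10.08, 10.64 and 10.84 in LIRKO livers (-1.72 ± 0.44, adjusted p = 0.0146). Lpl lost its call without LIRFKO mouse GTT_726 (adjusted p = 0.0522) or LIRKO mouse GTT_690 (adjusted p = 0.0636). With Fabp4, a fatty acid carrier of fat cells and macrophages (-1.34 ± 0.33, adjusted p = 0.0125, and 0.131, 0.0858 and 0.0716 without LIRFKO mouse GTT_725, LIRKO mouse GTT_690 or LIRKO mouse GTT_697), it made 2 of 10 PPARgamma targets that were lower, with a list median of -0.34.

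Drug-metabolizing enzymes were higher in 7 of 24 and lower in 0, with a list median of 0.44. Cyp2f2 had 14.65, 14.44 and 15.50 log2 in LIRFKO livers against 13.47, 12.65 and 12.08 in LIRKO livers (2.08 ± 0.47, adjusted p = 0.00662, and 0.118 without LIRFKO mouse GTT_725). Cyp1a2, the main caffeine oxidase, had 11.22, 10.97 and 11.37 against 9.70, 9.04 and 8.98 (1.75 ± 0.40, adjusted p = 0.00735, and 0.0722 without LIRFKO mouse GTT_725). Gstm1, counted with the Nrf2 targets and not in this list, and Gstm3, which is in both, are glutathione transferases of 1 gene family. They differed by 1.52 ± 0.25 (adjusted p = 0.000369) and 1.47 ± 0.26 (adjusted p = 0.000797) and kept their calls with any mouse left out. The count of drug-metabolizing enzymes called fell to 1 without LIRFKO mouse GTT_725. In refed mice the same list had 4 higher and 4 lower with a median of -0.03. Among 15 pericentral genes 3 were higher, Cyp1a2, Lect2 and Slc1a2, and 0 were called without LIRFKO mouse GTT_725. Nrf2 targets gave 3 higher (Gstm1, Gstm3 and Ephx1) and 2 lower (Abcc3 and Abcc4) of 20, and 2 were called without LIRFKO mouse GTT_725.

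Secreted factors regulated by feeding gave 3 higher, Inhbc, Inhbe and Lect2, and 1 lower, Igfbp1, of 18, and 1 was called without LIRFKO mouse GTT_725. Inhbe lost its call without any mouse but LIRFKO mouse GTT_726, at 0.0551 to 0.249, and Lect2 without LIRFKO mice GTT_725 or GTT_727 or LIRKO mouse GTT_697, at 0.0569 to 0.255. Inhbc, an inhibin chain made by hepatocytes, had 9.89, 9.69 and 9.94 log2 in LIRFKO livers against 8.13, 8.10 and 6.88 in LIRKO livers (1.92 ± 0.35, adjusted p = 0.000825). Metallothionein and glucocorticoid-induced genes gave 2 higher of 18, Hsd11b1, which regenerates active glucocorticoid (1.63 ± 0.38, adjusted p = 0.0083, and 0.114 without LIRFKO mouse GTT_725), and the metallothionein Mt2. Mt2 had 15.91, 15.48 and 15.42 against 14.60, 13.36 and 13.39 (1.74 ± 0.42, adjusted p = 0.00981, and 0.0555 without LIRFKO mouse GTT_725), with 1 LIRFKO mouse at the top of the range. Between the floxed lines after refeeding it went the other way (-2.27, adjusted p = 0.0102). Amino acid and urea cycle genes gave 2 higher of 21, Ido2 (1.26 ± 0.20, adjusted p = 0.000259) and Prodh (0.96 ± 0.23, adjusted p = 0.00879), enzymes of tryptophan and proline breakdown. Prodh lost its call without LIRFKO mice GTT_725 or GTT_726 or LIRKO mouse GTT_697 (0.075, 0.0543 and 0.123).

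Of 22 ribosome biogenesis genes 7 were lower and 0 higher, with a list median of -0.37. Ncl, the nucleolar protein nucleolin, had 10.31, 10.55 and 10.71 log2 in LIRFKO livers against 11.28, 11.71 and 11.65 in LIRKO livers (-0.89 ± 0.18, adjusted p = 0.0029). Nop56, of the complex that modifies ribosomal RNA, had 9.47, 9.48 and 9.49 against 9.99, 10.77 and 10.53 (-0.85 ± 0.20, adjusted p = 0.00819, and 0.0617 without LIRFKO mouse GTT_725). Ddx21, a nucleolar helicase, differed by -1.18 ± 0.29 (adjusted p = 0.0106, and 0.0974 and 0.0567 without LIRFKO mouse GTT_725 or LIRKO mouse GTT_697). The list mean was 8.46 to 8.55 in LIRFKO mice, against 8.78 to 9.07 in LIRKO mice and 8.40 to 9.0 in IR floxed mice. Without LIRFKO mouse GTT_725 the count was 2, and without LIRKO mouse GTT_697 it was 3. In refed mice 1 was lower with a median of 0.01.

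Of 23 immediate early genes 4 were lower: Klf10 (-1.24 ± 0.29, adjusted p = 0.00818), Nr4a1 (-0.83), Klf6 (-0.74) and Ier3 (-0.71), but at most 2 members of the list were called with any mouse left out and 0 without LIRFKO mouse GTT_725 or LIRKO mouse GTT_697. Over all genes 3.73% were called lower. In this list 14 of the 23 had means under 7 log2, Ier3 among them, where differences may be understated. Genes of the ATF4 stress response gave 4 lower of 20, and 2 without LIRFKO mouse GTT_725. Atf4, its transcription factor, had 12.51, 12.85 and 12.07 log2 in LIRFKO livers against 13.17, 13.33 and 13.32 in LIRKO livers (-0.84 ± 0.16, adjusted p = 0.00176, and 0.0566 without LIRFKO mouse GTT_725), while in refed mice it was called higher in LIRFKO (0.57, adjusted p = 0.0104). Psat1, of serine synthesis, differed by -1.51 ± 0.32 (adjusted p = 0.00354), with its 2 probes in opposite directions. The list of endoplasmic reticulum chaperones and unfolded protein genes gave 1 lower of 22, Ern1, a stress sensor and not a chaperone (-0.53 ± 0.16, adjusted p = 0.0338). Without LIRKO mouse GTT_690 its difference was -0.35 (adjusted p = 0.218). The call was also lost without LIRFKO mice GTT_726 or GTT_727 (adjusted p = 0.0805 and 0.144). Heat shock genes gave 2 lower of 13, Hspb1 (-1.66 ± 0.44, adjusted p = 0.0192) and Hspa1a (-1.42 ± 0.35, adjusted p = 0.0121). Without LIRKO mouse GTT_697 neither was called (0.109, and 0.266 with a difference of -0.85), and other single mice also took the calls away, at 0.0503 to 0.074.

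Fetal liver and injury genes gave 4 lower and 1 higher of 20, and 2 were called without LIRFKO mouse GTT_725. Defb1, a defensin, had 5.30, 5.35 and 5.46 log2 in LIRFKO livers, at the floor, against 7.50, 7.85 and 7.77 in LIRKO livers (-2.28 ± 0.19, adjusted p = 3.54e-08). Afp, the fetal albumin, had 6.32, 6.18 and 6.01 against 7.50, 7.47 and 7.70 (-1.44 ± 0.26, adjusted p = 0.000737). H19, an imprinted fetal RNA, had 7.34, 6.63 and 7.37 against 8.47, 10.78 and 11.28 (-2.58 ± 0.74, adjusted p = 0.0306), and its call was lost without any mouse but LIRKO mouse GTT_697, at 0.0642 to 0.15. Tnfrsf12a, a receptor induced by injury, differed by -1.05 ± 0.24 (adjusted p = 0.00627, and 0.104 without LIRFKO mouse GTT_725). The member that rose, Anxa5, lies near Foxo1 and is described with the lines.

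Of 20 genes of insulin signalling 6 were lower and 1 higher, with a list median of -0.17, and without LIRFKO mice GTT_725 or GTT_727 3 and 4 were called. Beside Insr, Irs2 and Trib3 the lower ones were Igf1r (-0.53), Pik3ca (-0.45) and Pdpk1 (-0.38). Insr, Igf1r and Pik3ca had means under 7 log2 in these mice, and Pik3ca lies 89 genes from Foxo1. Igf1r kept its call with any mouse left out. Pik3ca had an adjusted p of 0.0953 to 0.177 without LIRFKO mice GTT_725 or GTT_727 or LIRKO mouse GTT_697. Pdpk1 had one of 0.0588 to 0.0852 without LIRFKO mice GTT_725 or GTT_727 or LIRKO mice GTT_690 or GTT_697. The higher one was Pik3r1, the regulatory subunit of the phosphoinositide kinase (0.94 ± 0.23, adjusted p = 0.0111, but 0.50 with an adjusted p of 0.344 without LIRFKO mouse GTT_725 and 0.106 without LIRKO mouse GTT_697). Of the other lists, acute phase had 1 higher of 22 (Saa4), interferon 1 of 20 (Isg15), cell cycle 1 of 21 (Cdc20) and histones 3 of 13 (H2bc4, H2bc6 and H2bc8). Over all genes 3.85% were called higher. Means were under 7 log2 for 18 of the 21 cell cycle genes and 6 of the 13 histones, Cdc20, H2bc6 and H2bc8 among them. Without LIRFKO mouse GTT_725 the calls of Cdc20 and the 3 histones were lost, at 0.0789 to 0.246. Cdc20 was also lost without LIRFKO mouse GTT_726 (adjusted p = 0.156) or LIRKO mouse GTT_690 (adjusted p = 0.189). H2bc6 was lost without any mouse but LIRKO mouse GTT_697, at 0.0589 to 0.25. H2bc8 was lost without any mouse but LIRFKO mouse GTT_727, at 0.0653 to 0.246. Saa4, a constitutive serum amyloid, had 11.40, 10.73 and 11.33 log2 in LIRFKO livers against 8.89, 7.93 and 8.15 in LIRKO livers (2.74 ± 0.44, adjusted p = 0.000251), so LIRFKO mouse GTT_726, with the high acute phase mean, was not apart in it. Isg15, a ubiquitin-like protein induced by interferon, was lost without LIRFKO mice GTT_726 or GTT_727 or LIRKO mice GTT_667 or GTT_697, at 0.124 to 0.177. Of 21 circadian clock genes limma called 0, and 1 passed an unadjusted p of 0.05, as 4427 of all genes did. Usp2 had 9.02, 8.60 and 8.88 against 6.36, 6.70 and 6.87 (2.13 ± 0.81, adjusted p = 0.117).

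**Figure D3:**
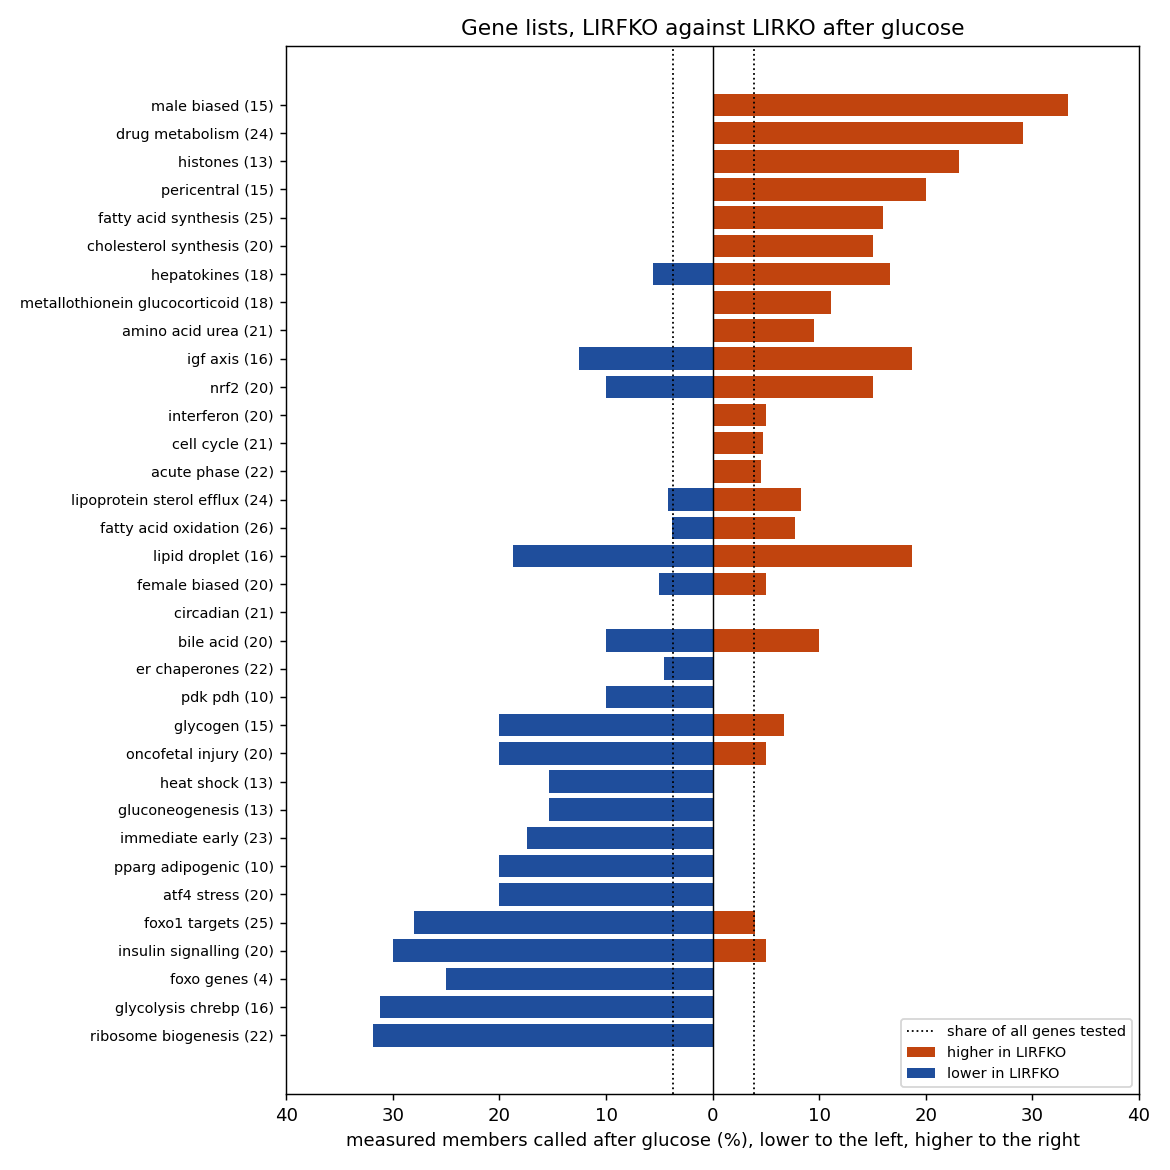
Share of the measured members of 34 gene lists that were called higher (right) or lower (left) in LIRFKO than in LIRKO livers after glucose, with the number measured in brackets. Dotted lines mark the shares over all genes, 3.85% higher and 3.73% lower. Male-biased genes have the largest share higher, 5 of 15, and ribosome biogenesis genes the largest share lower, 7 of 22.

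Markers of other cell types were counted in lists of 5 to 13 genes, while 7.57% of all genes were called. Means were under 7 log2 for 7 of 13 stellate, 8 of 8 bile duct and 8 of 9 B and plasma cell markers. The same held for 7 of 10 neutrophil, 4 of 6 fat and 5 of 7 acinar markers. It held for 4 of 13 Kupffer, 3 of 13 endothelial and 2 of 5 erythroid markers. A count of 0 in such a list does not show that the groups were alike. Counts by limma were 0 of 13 for Kupffer cells and macrophages, 0 of 13 for stellate cells, 0 of 8 for bile duct cells, 0 of 9 for B and plasma cells, 0 of 5 for erythroid cells, 0 of 7 for pancreatic acinar cells, 1 lower of 13 for endothelial cells (Pecam1), 1 lower of 6 for fat cells (Fabp4) and 1 higher of 10 for neutrophils (Ly6g). At an unadjusted p of 0.05 the lists with 0 had 1, 0, 0, 1, 2 and 0 members, in that order. Pecam1 lost its call without LIRFKO mouse GTT_726 or LIRKO mouse GTT_690 (0.0686 and 0.0542), and Ly6g without the same mice (0.0884 and 0.0693). The neutrophil count was 0 without LIRFKO mouse GTT_726, whose Mpo was 9.40 against 5.59 and 5.43 in the other LIRFKO mice, but 4 without LIRFKO mouse GTT_725 and 5 without LIRFKO mouse GTT_727. Hepatocyte markers averaged 14.51 to 14.64 in LIRFKO mice, against 13.90 to 14.45 in LIRKO mice, and 2 of 11 were higher, Ttr (1.65 ± 0.29, adjusted p = 0.000717) and Cebpa (1.14 ± 0.27, adjusted p = 0.00897, and 0.0593 and 0.0779 without LIRKO mice GTT_690 or GTT_697). Fewer cells of a type and less RNA per cell cannot be told apart in whole liver, and the part of these markers in the results was not tested.

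The difference between genotypes was largely shared with mice that had no glucose. Of the 1703 genes, 1526 (89.6%) had the same sign in fasted mice and 1452 (85.3%) in refed mice, against 64.2% and 62.1% of all genes. Fasted mice gave 1463 calls (6.51%) and refed mice 1820 (8.09%). 635 genes were called in the same direction after glucose and fasted, which is 37.3% of the glucose calls and 43.4% of the fasted ones, and 587 after glucose and refed, which is 34.5% and 32.3%. All 3 states shared 419 genes, 226 higher and 193 lower. 4 genes were called in opposite directions in glucose and fasted mice and 11 in glucose and refed mice. Of the 10 largest rises 8 were also called in fasted and 9 in refed mice, with Mfsd2a in neither (1.26, adjusted p = 0.262, and 1.64, adjusted p = 0.0542). Of the 10 largest falls 8 and 9 were. The difference after glucose differed from that in fasted mice for 13 genes (0.0578%, 6 higher or 0.0267% and 7 lower or 0.0311%), and for 1 of all genes without LIRFKO mouse GTT_725 but 107 without LIRKO mouse GTT_697. G6pc was at -0.01 in fasted mice and -1.84 after glucose, and this difference of differences was not called (-1.83, adjusted p = 0.354).

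**Figure D4:**
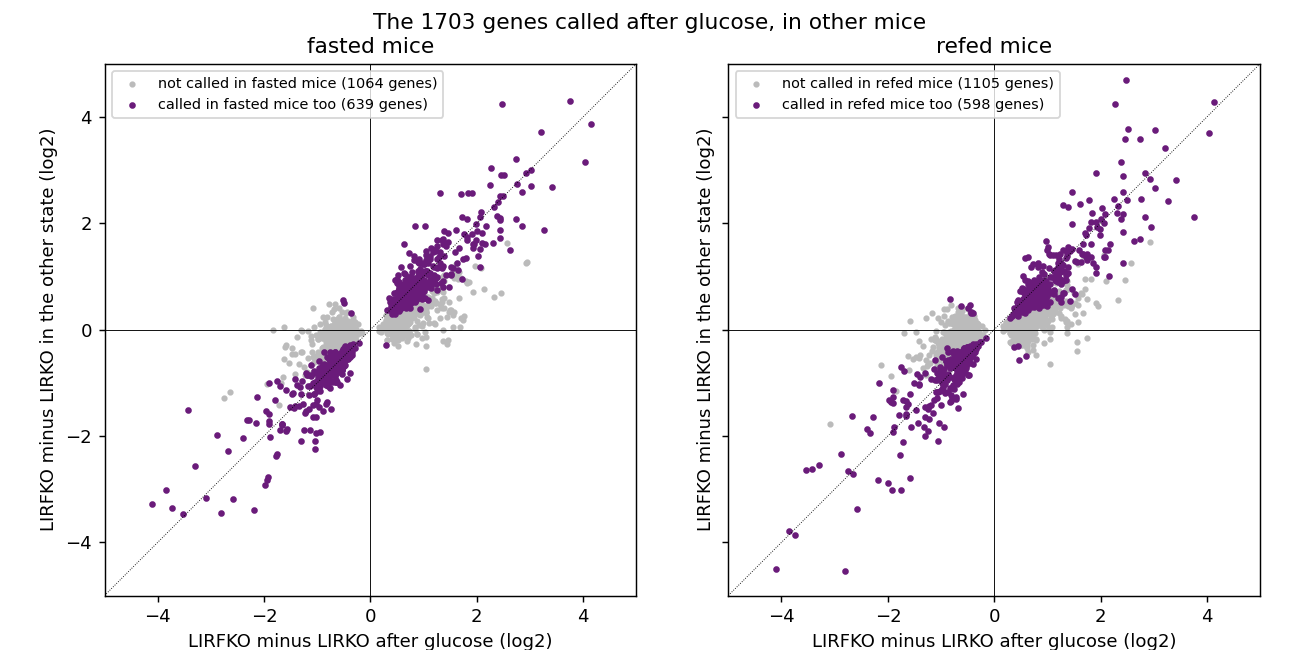
LIRFKO minus LIRKO differences of the 1703 genes called after glucose (horizontal, log2) against the same difference in fasted mice (left) and refed mice (right), which are other animals. Purple points were called in the other state too, and most points lie in the 2 quadrants of equal sign, 89.6% with fasted and 85.3% with refed mice.

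On the array that mice GTT_725 and GTT_697 shared, 1699 of the 1703 genes (99.8%) had the direction of the fit, which these 2 mice helped to set. For 1543 of the 1703 the groups did not overlap, so the direction between any LIRFKO and any LIRKO mouse was fixed beforehand. The count of called genes fell to 621 without LIRFKO mouse GTT_725 and to 1013 without LIRKO mouse GTT_690. 388 of the 1703 (22.8%) were called whichever mouse was left out. At 1 log2 or more 228 genes were higher and 125 lower, at 2 log2 or more 47 and 19, and 281 called genes had both means under 7 log2. A fit of the 6 mice alone, with no shared spread, called 153.

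Some differences were also seen between the lines with Foxo1 intact. Between the floxed controls of both lines after refeeding, whose Foxo1 differed by 0.03, 20 genes were called (0.0889%), 17 higher (0.0756%) and 3 lower (0.0133%) in IR/FoxO1 floxed mice. Of these, 9 were also called after glucose, 7 in the same direction: Acly, Anxa5, Bbs7, Capn10, Dcun1d1, Dntt and Tmod4. After glucose Bbs7, Capn10 and Tmod4 lost their calls with single mice left out, at 0.0508 to 0.188. In the RefSeq gene order (GRCm38.p6), 7 of the 20 lie on the chromosome of Foxo1, which holds 1080 of the 22295 placed genes tested, and 5 lie among the 200 genes nearest to Foxo1, 100 on each side: Dcun1d1, Anxa5, Bbs7, Nudt6 and 1700007F19Rik. That is 2.5% of these neighbours, against 0.0889% of all genes. Their number was 2 to 5 with 1 floxed mouse left out, with Dcun1d1 and Nudt6 called each time, and the 20 became 7 without IR/FoxO1 floxed mouse Refed_472, 9 without Refed_473 and 11 without IR floxed mouse Refed_506. After glucose, 27 of the 200 neighbours were called (13.5%, 11 higher and 16 lower, against 7.57% of all genes), and 8 (4%, against 2.76%) without LIRFKO mouse GTT_725. Insr, floxed in both lines, comes first of the tested genes in the order of its chromosome, so its neighbours lie on 1 side only. Of the 100 tested genes after it, 12 were called after glucose and 0 between the floxed lines. These 12 lay 44 to 97 genes away, Slc10a2 and Irs2 among them, and 0 of the nearest 25 were called after glucose.

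Dcun1d1, 67 genes from Foxo1 and a factor for neddylation, had the largest difference among them. It had 9.83, 10.22 and 9.95 log2 in LIRFKO livers after glucose, against 7.79, 7.48 and 7.21 in LIRKO livers (2.30 ± 0.36, adjusted p = 0.000195), and differed by 2.09 ± 0.34 between the floxed lines (adjusted p = 0.00565). Over all states it ran from 9.17 to 10.22 in the 16 mice of the IR/FoxO1 line, floxed or deleted, and from 7.21 to 8.80 in 20 of the 21 mice of the IR line. The exception was IR floxed mouse GTT_659, at 9.80, which also had a high pancreatic acinar mean (10.96), as did LIRFKO mouse Refed_478 (11.82). Acad9, a mitochondrial dehydrogenase 63 genes from Foxo1, ran from 8.57 to 8.98 in the IR/FoxO1 line and from 7.38 to 8.36 in the IR line, without overlap, and was called after glucose (0.84 ± 0.15, adjusted p = 0.00074). Between the floxed lines Acad9 was not called (0.60 ± 0.14, adjusted p = 0.0857). Anxa5, an annexin 60 genes away, had 10.84, 11.16 and 11.42 in LIRFKO livers against 9.46, 9.49 and 9.30 in LIRKO livers (1.71 ± 0.36, adjusted p = 0.00326, and 0.0742 without LIRFKO mouse GTT_725) and differed by 1.79 ± 0.33 between the floxed lines (adjusted p = 0.0202). Over all states Anxa5 overlapped, from 10.37 to 11.42 in the IR/FoxO1 line and from 8.35 to 11.77 in the IR line. Between LIRFKO and LIRKO mice it was not called when fasted (0.22 ± 0.36, adjusted p = 0.834) or refed (0.76 ± 0.31, adjusted p = 0.143). Setd7, 4 genes from Foxo1 and a lysine methyltransferase, differed by -1.91 ± 0.28 after glucose (adjusted p = 7.58e-05) and by -0.44 ± 0.26 between the floxed lines (adjusted p = 0.873). Over all states Setd7 ran from 6.48 to 6.95, with a median of 6.59, in the 16 mice of the IR/FoxO1 line, floxed ones included, and from 6.61 to 8.81, with a median of 7.85, in the IR line. Mgst2, a glutathione transferase 2 genes away, differed by -1.59 ± 0.26 after glucose (adjusted p = 0.000303) and by 0.21 ± 0.24 between the floxed lines (adjusted p = 0.976). It ran from 5.39 to 6.79 in the IR/FoxO1 line and from 5.43 to 9.45 in the IR line. These neighbours were named after their values were seen, and whether a gene's difference after glucose belongs to the line or to FoxO1 was not tested, since no IR/FoxO1 floxed mouse given glucose was among the samples analysed.

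**Figure D5:**
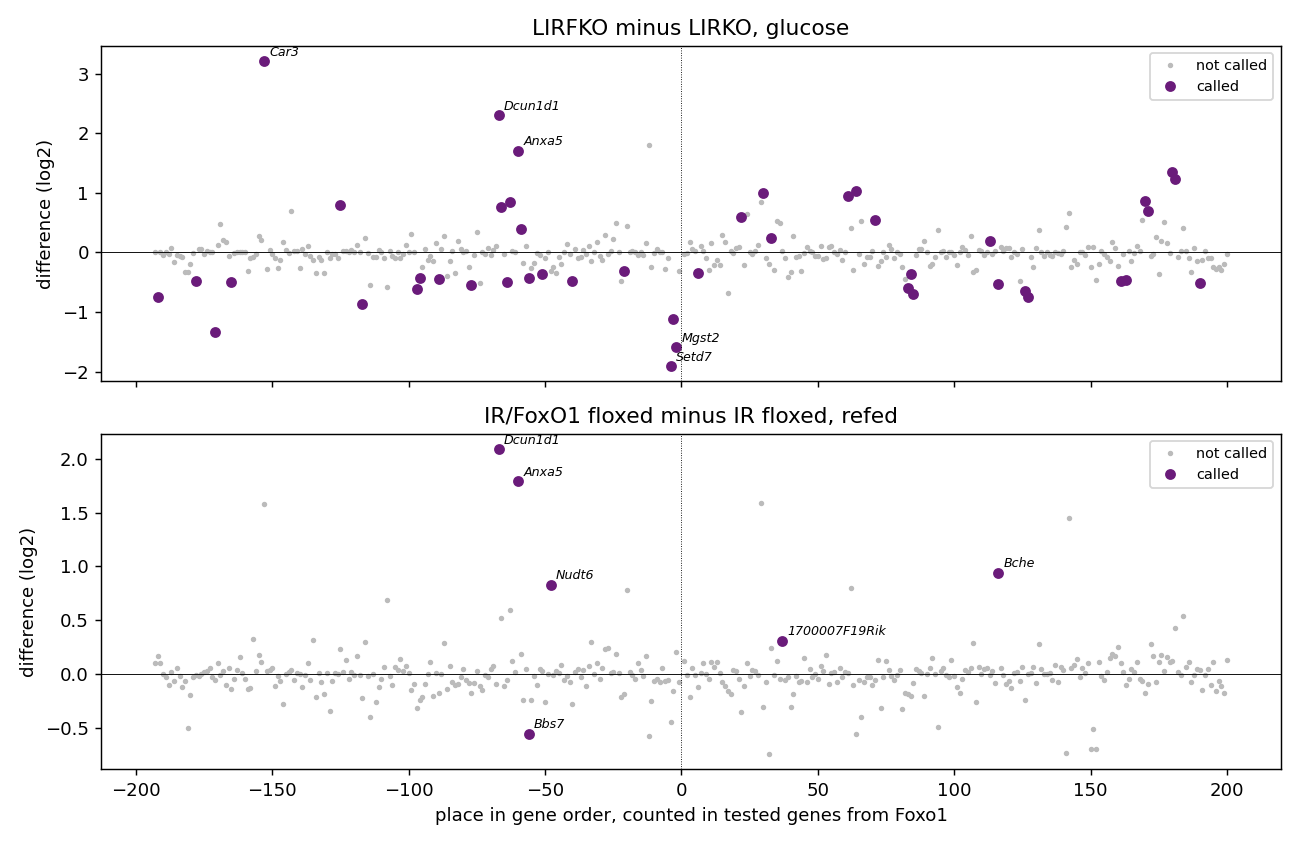
Differences of the tested genes near Foxo1, by their place in the gene order counted from Foxo1 at 0, for LIRFKO minus LIRKO after glucose (upper panel) and IR/FoxO1 floxed minus IR floxed after refeeding (lower panel), in log2, with called genes in purple. Dcun1d1 and Anxa5 are high in both panels (2.30 and 1.71 above, 2.09 and 1.79 below), and Setd7 and Mgst2 are low in the upper panel (-1.91 and -1.59) and not called in the lower one (-0.44 and 0.21), which does not show that the lines are alike in them.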

How the data were processed

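The authors deposited 1 table of log2 values for 38 single dye channels of Agilent 2-colour arrays, each channel 1 mouse. R 3.1.0 and limma 3.20.1 are listed in the submitters' processing notes, and how background and normalization were handled is not stated there. Samples were grouped by title as separate mice, and slides and arrays were read from the labels. Of 45220 features 33026 had 1 gene, and the probe of highest mean over all columns stood for each of 22485 genes. A limma 3.58.1 model (statmod 1.5.0, R 4.3.3) of 37 samples held a mean for each of 11 groups and a dye term, with arrays as random blocks whose consensus correlation was 0.358, and p was adjusted by Benjamini-Hochberg. With 3 mice against 3 an exact permutation test of 1 gene cannot go below 0.1, so the tests rest on a spread shared over all groups. Data of the glucose comparison were simulated over 22485 genes. There 80 of 100 genes changed by 1 log2 and 98 of 100 changed by 2 log2 were recovered, with 10 false calls. These counts describe the simulated data only and are not a rate of missed or false calls in the mice. In the mice, calls fell from 1703 to 621 without LIRFKO mouse GTT_725.

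Named genes were the 10 largest rises and 10 largest falls among called genes without overlap and with a mean of at least 7 log2 in the higher group, predicted gene models passed over, 16 key genes (15 measured), and up to 3 called members of largest difference from each of 34 pathway and 11 marker lists, or up to 2 of smallest p where 0 were called. Other list members and the neighbours of Foxo1 and Insr were named after their values were seen. The comparison, key genes and lists were chosen with earlier results of these data known, and lists are described by counts and medians. The Foxo1 level of IR/FoxO1 floxed mouse Fast_523 goes against its label. It stayed in the shared fit, and a fit without it was 1 of 9 alternatives beside leaving out each mouse. RefSeq tables of GRCm38.p6 gave gene order, and promoters for 84 of 113 named genes.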

Additional observations from a re-analysis of the deposited data

Results flagged for a closer look

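For the key genes and the largest rises and falls, 66 sets of 4 values were examined, each 1 gene in refed LIRFKO or LIRKO mice. In 8 sets a mouse was far from the other 3, where chance gives about 1 in 20 for a single set. All 66 sets came from the same 4 LIRFKO and 4 LIRKO mice. They were not independent, so the 8 cannot be set against that rate. In refed LIRFKO mice, Angptl8 was 10.92 log2 in mouse Refed_468, against 12.88 to 13.16 in the others. Mouse Refed_478 was apart in 3 genes, with Car3 at 12.25 against 13.48 to 13.52, Foxo3 at 5.42 against 5.53 to 5.54 (all near the floor) and Hamp2 at 7.40 against 8.51 to 8.73. It is also the mouse with the highest pancreatic acinar mean, 11.82. In refed LIRKO mice, Pck1 was 14.43 in mouse Refed_553 against 15.67 to 15.88, and Serpinb1a was 10.72 in mouse Refed_564 against 9.98 to 10.03. Mouse Refed_565 was apart with Rgs16 at 12.75 against 12.20 to 12.26 and Slc3a1 at 6.62 against 6.14 to 6.20.

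For 13 genes the LIRFKO minus LIRKO difference after glucose was not the one in fasted mice, by the interaction test (limma, adjusted p from 0.01 to 0.0469). The change of the difference, glucose minus fasted, was 1.65 for Slc22a27 (1.45 after glucose, -0.20 fasted), 1.12 for Tcf24 (1.22 and 0.11), 1.09 for Spdef (0.26 and -0.83), 1.05 for Sorbs3 (-0.05 and -1.10), 0.77 for Nras (0.28 and -0.48) and 0.70 for Cyb5r4 (0.44 and -0.26). It was -1.84 for Sucnr1 (0.41 and 2.26), -1.30 for Mtx3 (-1.31 and -0.00), -1.08 for Hhip (-0.52 and 0.55), -0.98 for Coa8 (-0.49 and 0.50), -0.86 for 2510002D24Rik (-0.32 and 0.54), -0.83 for Dlg3 (-0.08 and 0.75) and -0.68 for Stard9 (-0.36 and 0.32).

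Among the 12194 features that name no gene, 470 (3.85%) were called after glucose, 119 higher and 351 lower in LIRFKO.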

How the results depend on the processing

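Among the 9 alternative fits, the 1703 calls after glucose became 153 with the 6 mice fitted alone, where no array correlation could be estimated from 1 shared array, and the other 8 gave counts within 1.5 times. The fasted count of 1463 became 44 with its mice alone and 845 with no array block. The 13 genes of the glucose minus fasted test became 8 without IR/FoxO1 floxed mouse Fast_523, 3 among genes above the median level, 7 with an intensity trend and robust prior, 7 with the mean over probes, 2 with no dye term and 0 with no array block (limma, 1297 at an unadjusted p of 0.05). The 20 genes of the floxed lines became 32 without mouse Fast_523, 31 with the trend and robust prior and 0 with the compared mice alone (limma, 1373 unadjusted). The cause was not tested. With 1 mouse left out, calls ranged from 621 (LIRFKO mouse GTT_725) to 1492 after glucose, 499 to 1494 fasted (499 without mouse Fast_550, 965 without Fast_505 and between these without Fast_518), 1062 to 1509 refed (1062 and 1105 without mice Refed_468 and Refed_565), 1 to 107 for glucose minus fasted and 7 to 27 for the floxed lines. Of 93 named genes called, 55 lost their call with some mouse left out, and no direction reversed. Values near the floor or above 15.8 limit what a difference can show. No paired analysis was possible because LIRFKO and LIRKO mice share no mouse numbers in the labels. Arrays that held both entered the fit as a block.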

Other observations

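LIRFKO mouse GTT_724, whose labels conflict, had 6.51 log2 for Insr, 6.80 for Foxo1, 13.12 for Igfbp1, 6.04 for Serpinb1a, 8.03 for Krt23, 13.21 for Ces1f, 10.60 for Fam25c and 8.84 for Mmd2.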
